A study of Mus musculus with 14 samples.

Results

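Interferon-stimulated genes were described in the gastrocnemius, a calf muscle, of tumour-bearing mice. The genes were taken from a list of 41 by symbol, and 40 of them were measured among the 19505 genes of the array, with Ifi44 not analysed here. They were split by role into 7 regulators, 10 genes of the type I families (Ifit, Mx and Oas) and 7 genes grouped as sensors. The rest were 10 other effectors and 6 interferon-gamma GTPases (Gbp, Igtp and Irgm). The sensor group holds sensors of viral nucleic acid together with Trim25, a ubiquitin ligase, and Samhd1, a phosphohydrolase. Male C57BL/6 mice carried subcutaneous tumours of Panc02, a mouse pancreatic cancer line, and 1 Clariom S array was run for each of 14 mice. The HMB group (7 arrays) was fed AIN-93G diet with β-hydroxy-β-methylbutyrate, a leucine metabolite taken to preserve muscle, and the control group (7 arrays) the same diet without it. Feeding started ahead of the tumour graft. The labels also speak of anti-PD1 without saying whether any of these mice received it. The paper names the muscle groups only as control and control + HMB. The extraction text of the labels names tumour although the tissue field names muscle. All 13 muscle fibre markers looked up, such as Ckm and Acta1, lay above background on every array.

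Interferons are secreted proteins that switch on a shared set of defence genes. Type I interferons signal through Ifnar1 and Ifnar2 to a complex of Stat proteins with Irf9, which binds the interferon-stimulated response element (ISRE) of Ifit, Mx and Oas genes. Interferon-gamma, made by T and NK cells, signals through Ifngr1 and Ifngr2 to Stat dimers that bind the gamma-activated site (GAS), and it strongly induces the GTPases that attack intracellular pathogens. The question put to the data was whether HMB in the diet alters these genes in muscle of tumour-bearing mice.

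Letters like both kinds of site were looked for before the start sites of the genes. Windows of 250 bases before the start were found for 31 of the 40 genes in RefSeq promoter sequences (build GRCm38.p6), and none was found for Usp18, Mx1, Mx2, Oas2, Dhx58, Zbp1, Rtp4, Parp9 and Parp14. A pair of GAAA blocks with any 2 bases between them (TTTC blocks on the other strand), an ISRE-like motif, stood in 14 of 31 windows (45.2%), against 3.46% of the windows of all 27025 genes of the table. The letters TTCNNNGAA, a GAS-like motif that reads the same on both strands, stood in 9 of 31 (29.0%), against 8.13% of all genes. Both motifs stood in 5 of the 31 windows and neither in 13. The motifs share the letters GAA and can overlap, as they do at Bst2. All 6 GTPases held the ISRE-like motif and 3 of them also the GAS-like one (Gbp7, Igtp and Irgm2), while 4 of 7 type I genes held the ISRE-like motif and 2 of 7 the GAS-like one. None of 5 sensors held the ISRE-like letters. The 160 bases before the start are shown 5′ to 3′ on each gene's own strand, with matches in capitals, for genes of both families and for 2 regulators, Irf1 with a GAS-like match only and Ifi35 with no match.
Ifit1 (chr19:34640729-34640888, plus strand): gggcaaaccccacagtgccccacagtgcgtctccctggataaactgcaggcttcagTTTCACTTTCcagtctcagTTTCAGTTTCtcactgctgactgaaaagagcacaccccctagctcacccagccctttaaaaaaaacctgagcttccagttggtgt
Ifit3 (chr19:34583369-34583528, plus strand): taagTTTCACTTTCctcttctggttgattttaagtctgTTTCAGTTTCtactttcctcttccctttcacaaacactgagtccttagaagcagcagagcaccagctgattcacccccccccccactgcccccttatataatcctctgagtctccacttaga
Gbp2 (chr3:142620503-142620662, plus strand): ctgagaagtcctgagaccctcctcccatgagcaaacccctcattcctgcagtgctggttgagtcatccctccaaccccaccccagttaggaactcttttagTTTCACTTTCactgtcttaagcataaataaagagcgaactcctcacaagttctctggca
Igtp (chr11:58199396-58199555, plus strand): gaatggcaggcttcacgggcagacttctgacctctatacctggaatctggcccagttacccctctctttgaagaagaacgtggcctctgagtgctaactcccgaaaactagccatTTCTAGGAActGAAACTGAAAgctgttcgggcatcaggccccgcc
Irgm2 (chr11:58214817-58214976, plus strand): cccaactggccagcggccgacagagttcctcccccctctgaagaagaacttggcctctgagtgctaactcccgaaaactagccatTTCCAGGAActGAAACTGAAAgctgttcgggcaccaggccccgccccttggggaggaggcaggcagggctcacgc
Irgm1 (chr11:48871421-48871580, minus strand): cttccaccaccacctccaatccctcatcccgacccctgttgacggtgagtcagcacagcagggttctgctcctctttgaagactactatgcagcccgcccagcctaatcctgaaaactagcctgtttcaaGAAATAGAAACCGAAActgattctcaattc
Irf1 (chr11:53769854-53770013, plus strand): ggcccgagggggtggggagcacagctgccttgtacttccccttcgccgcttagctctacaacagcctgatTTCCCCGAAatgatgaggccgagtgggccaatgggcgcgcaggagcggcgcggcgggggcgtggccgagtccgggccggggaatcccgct
Ifi35 (chr11:101448252-101448411, plus strand): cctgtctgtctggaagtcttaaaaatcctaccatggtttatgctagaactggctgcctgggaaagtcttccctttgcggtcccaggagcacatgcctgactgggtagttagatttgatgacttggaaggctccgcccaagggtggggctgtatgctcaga
The 2 Ifit genes carry a pair of TTTC repeats each, and Irgm1 a run of GAAA repeats in which matches overlap. In Igtp and Irgm2, neighbours on chromosome 11, the GAS-like and ISRE-like matches lie side by side, and 107 of 130 aligned bases (82.3%) were equal. A match describes letters in the window and does not show that a factor binds there.

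No interferon-stimulated gene differed between HMB and control past the adjusted threshold. In limma, adjusted over all genes, 0 of 40 were called (adjusted p 0.990 to 0.999), beside 0 of 19505 genes on the array (0%). At an unadjusted p under 0.05, 3 of 40 passed (7.50%; all genes 4.54%). These were Ifi35 with a higher mean in HMB (1 of 40; all genes 2.35%), and Parp14 and Mx2 with lower means (2 of 40; all genes 2.19%). By mean alone 32 of 40 were lower in HMB (all genes 48.3%) and 8 higher (all genes 51.7%). With each array centred on its median, 29 of 40 and 35.8% of all genes were lower. The median difference (HMB minus control, in log2 units) was -0.14 over the 40 genes and 0.0090 over all genes. In none of the 40 were the groups apart without overlap (0.0974% of all genes were). In bulk muscle, fewer cells of a type and less RNA per cell cannot be told apart.

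One control array stood apart, and leaving it out moved these counts, as leaving out some other arrays did. Its means over the lymphocyte, lymph node, dendritic cell and fat marker lists were the highest of 14 arrays. On it 5 of 11 B cell, 4 of 11 T cell and 6 of 6 adipocyte genes lay above background. So did 2 of 5 lymph node stroma genes, Madcam1 being at 2.69 there and 3.34 on HMB 2. Of the 5 plasmacytoid dendritic cell genes 0 lay above background on any array. The 11 B cell genes averaged 3.27 to 3.83 over HMB arrays and 3.37 to 3.70 over 6 control arrays, with control 7 at 10.35. The 11 T cell genes averaged 4.62 to 5.50 over HMB arrays and 5.002 to 5.37 over those 6 controls, with control 7 at 9.92. Among lymph node stroma genes control 7 was at 9.64, with no other array above 5.90. The 5 plasmacytoid dendritic cell genes, markers of cells that make type I interferon, averaged 3.96 to 4.56 over HMB arrays and 3.97 to 4.15 over those 6 controls, with control 7 at 7.42. The 6 adipocyte genes averaged 8.60 to 12.71 over HMB arrays and 8.58 to 10.71 over those 6 controls, with control 7 at 14.18. Control 7 was also the highest of 14 arrays for 12 of 40 interferon-stimulated genes (30.0%), as it was for 14.6% of all genes. Without control 7, 28 of 40 had lower means in HMB (all genes 50.2%), the median difference was -0.096, and 4 of 40 passed an unadjusted p under 0.05 (all genes 4.37%), with Usp18 as the addition and Mx2 and Parp14 as the 2 lower ones (all genes 2.44%). Lower means were also found in 28 of 40 genes without HMB 3 (all genes 49.5%) and without control 6 (all genes 47.8%). The median difference was -0.10 without HMB 5. The part of lymphoid, fat or any dendritic cell RNA in the lower means was not tested. The 11 macrophage and monocyte genes averaged 7.69 to 9.51 over HMB arrays and 7.96 to 9.17 over control arrays, HMB 4 being the highest.

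Most of the genes were dim in muscle, as were most genes of the array. The median level was 8.15 over the 40 genes and 6.61 over all genes. Background was set at the 95th percentile of intron control probesets of each array (10.53 to 10.87). Gbp7 and Samhd1 lay above it on all 14 arrays, Irgm1 on 8, Irgm2 on 3, Gbp2 on 2 and Lgals3bp on 1, and the other 34 genes on none. Of all 19505 genes, 3643 lay above it on all 14 arrays and 13915 on none. For 11 genes, 6 of them of the type I families, the means of both groups were below 6.25, the smallest intron median of any array. A difference there is between values at background. The 11 genes were Irf7, Ifit1, Mx1, Mx2, Oas1a, Oas3, Oasl1, Dhx58, Zbp1, Isg15 and Rsad2. Over all genes, 9186 of 19505 had both means below 6.25. For 31 of the 40 genes the 95% interval of the difference stayed within 1 log2 unit of 0 on both sides. The plot of differences by role shows how the intervals cross 0.

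**Figure D1:**
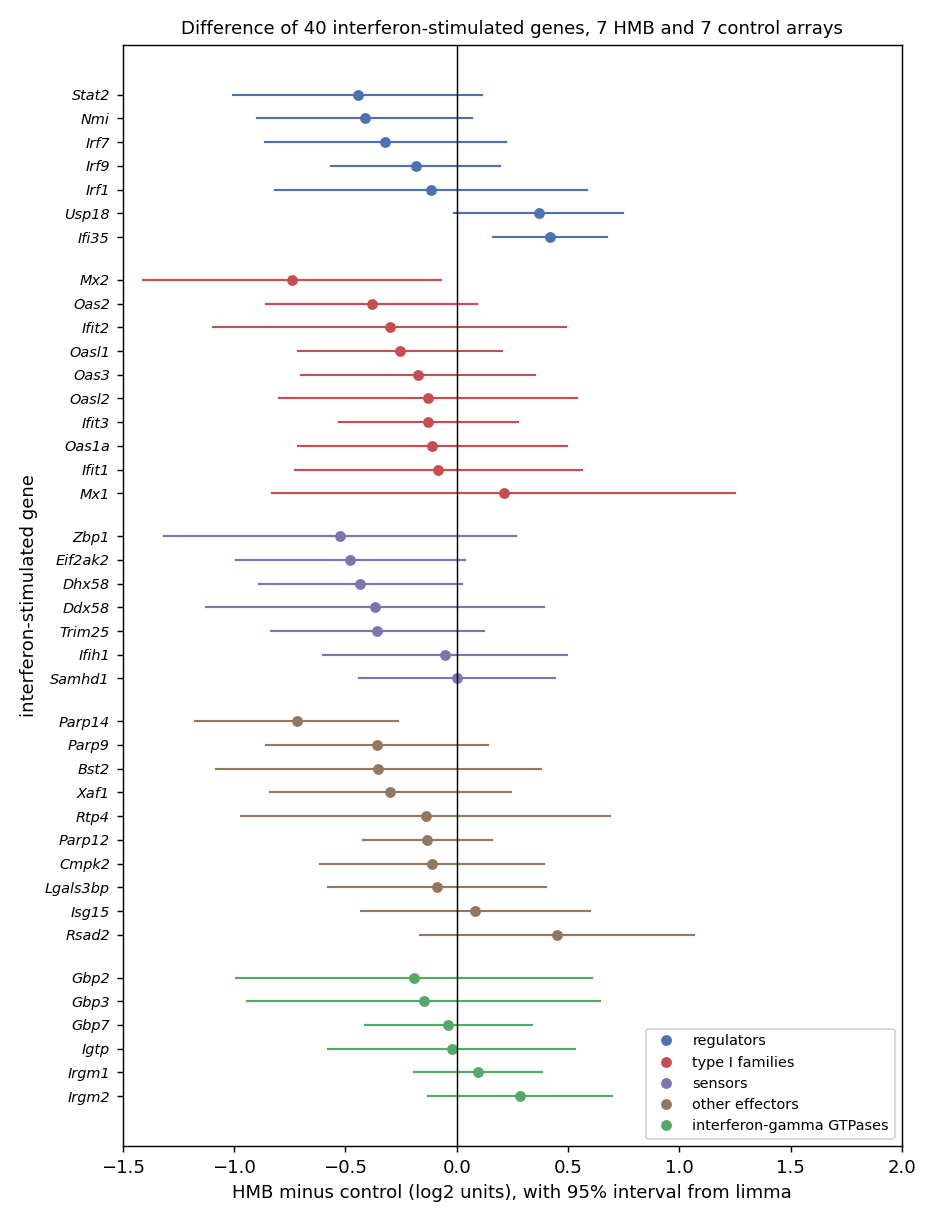
Difference of HMB minus control in log2 units (x axis) for each of 40 interferon-stimulated genes (y axis, grouped by role), with 95% limma intervals. Intervals of 37 genes hold 0, and those of Ifi35, Mx2 and Parp14 do not.

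Among the regulators 5 of 7 had lower means in HMB (all genes 48.3%), with a median difference of -0.18. Without control 7 it was 4 of 7 (all genes 50.2%) with a median of -0.061. Ifi35, a leucine zipper protein that binds Nmi, had the smallest p of all 40 genes. Its values ran from 8.82 over a median of 9.13 to 9.28 in HMB, and from 8.45 over 8.65 to 8.91 in control. Every one of the 7 HMB arrays exceeded the control mean, and 5 exceeded every control array. The means were 9.09 ± 0.19 in HMB and 8.67 ± 0.16 in control (SD, n = 7 each), a difference of 0.42 (SE 0.12), and limma's unadjusted p of 0.00341 became 0.990 after adjustment. Nmi, its partner, went the other way by mean: 8.21, 8.37 and 9.16 (lowest, median, highest) in HMB and 8.30, 8.90 and 9.9996 in control, a difference of -0.41 (SE 0.23). Control 7 gave its highest value, and without that array the difference was -0.24. Usp18, the protease that strips Isg15 from proteins and damps the type I receptor, had 7.64, 7.97 and 8.08 in HMB and 6.77, 7.62 and 8.06 in control. The HMB arrays were close together while the control arrays spread to lower values, and the difference was 0.37 (SE 0.18), or 0.46 without control 7.

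The remaining regulators are the transcription factors. Irf1, the early factor of the interferon-gamma response, averaged 9.31 ± 0.41 in HMB and 9.42 ± 0.85 in control, with a difference of -0.11 that was 0.073 without control 7. Irf7, which amplifies type I interferon output, averaged 5.55 ± 0.59 in HMB and 5.87 ± 0.39 in control. In this gene HMB 4 stood alone at 6.76, and 3 of the other HMB arrays lay under every control. Irf9, the DNA-binding part of the type I complex, averaged 7.29 ± 0.22 in HMB and 7.48 ± 0.40 in control, and its partner Stat2 8.60 ± 0.46 in HMB and 9.05 ± 0.57 in control. The groups overlapped in all 4 factors.

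In the type I families 9 of 10 genes had lower means in HMB (all genes 48.3%), with a median difference of -0.15 (-0.18 without control 7). None lay above background on any array. Mx2, of the dynamin-like Mx family, had 4.82, 5.59 and 6.04 (lowest, median, highest) in HMB and 5.20, 6.18 and 7.66 in control. Most of the HMB arrays lay in the lower part of the control range and control 3 was the highest of all. Its difference was -0.74 (SE 0.31), with an unadjusted p of 0.0326 and an adjusted p of 0.990 in limma, at values under the lowest intron median in both groups. Oas2, one of the synthetases whose adenylate chains activate RNase L, had 5.85, 6.83 and 7.54 in HMB and 6.64, 7.23 and 7.36 in control. Of the HMB arrays 3 lay under every control and HMB 4 above every control, for a difference of -0.38 (SE 0.22). Oasl1, of the Oas-like proteins, had 2.35, 3.24 and 3.52 in HMB and 2.75, 3.35 and 4.08 in control. Of the controls 3 lay above every HMB array, HMB 3 lay under every control, and the difference was -0.25 (SE 0.22).

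Mx1, a paralogue of Mx2, was the only type I gene with a higher mean in HMB, 5.37 ± 0.69 against 5.16 ± 1.25 in control. The control mean held control 7 at 7.64, with the other controls at or under 5.49, and without it the difference was 0.62 in place of 0.21. The Ifit proteins bind foreign RNA. Their differences were -0.082 for Ifit1, -0.30 for Ifit2 and -0.13 for Ifit3, each within 1 SE of 0. For the other Oas genes the differences were -0.11 (Oas1a), -0.17 (Oas3) and -0.13 (Oasl2), with SEs of 0.28, 0.25 and 0.31. Without control 7 they were 0.042, -0.086 and -0.20, so that the sign of Oas1a turned. Whether the probes tell near-identical copies of these families apart was not tested.

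The sensors had lower means in HMB in 6 of 7 genes (all genes 48.3%), with a median difference of -0.37 (-0.25 without control 7). Dhx58, a RIG-I-like helicase that tunes the other sensors, had 4.76, 5.32 and 5.83 (lowest, median, highest) in HMB and 5.27, 5.69 and 6.53 in control. Both Dhx58 means lay under the lowest intron median. Eif2ak2, the kinase PKR that halts translation on double-stranded RNA, had 8.05, 8.68 and 9.54 in HMB and 8.60, 9.18 and 9.94 in control. Trim25, the ubiquitin ligase that acts on RIG-I, had 8.12, 8.70 and 9.42 in HMB and 8.78, 9.14 and 9.76 in control. In each of the 3 genes the HMB median lay near or under the lowest control arrays, while single HMB arrays reached well into the control range, HMB 4 the furthest. The differences were -0.43 (SE 0.21), -0.48 (SE 0.24) and -0.36 (SE 0.22) for Dhx58, Eif2ak2 and Trim25. Without control 7 they were -0.44, -0.36 and -0.25.

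Ddx58, the sensor RIG-I itself, averaged 7.84 ± 0.53 in HMB and 8.20 ± 0.88 in control, and the difference of -0.37 shrank to -0.085 without control 7. Ifih1, the sensor of long double-stranded RNA, averaged 9.62 ± 0.39 in HMB and 9.68 ± 0.60 in control, a difference of -0.051 that was 0.12 without control 7. Zbp1, which detects Z-form nucleic acid, averaged 4.04 ± 0.93 in HMB and 4.57 ± 0.53 in control, at background in both. Samhd1, a phosphohydrolase that depletes deoxynucleotides, was above background throughout, with 11.45, 11.82 and 12.09 in HMB and 11.41, 11.63 and 12.81 in control. Its groups coincided (difference 0.0011, SE 0.21, 95% interval -0.44 to 0.44), and control 7 was the highest array.

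**Figure D2:**
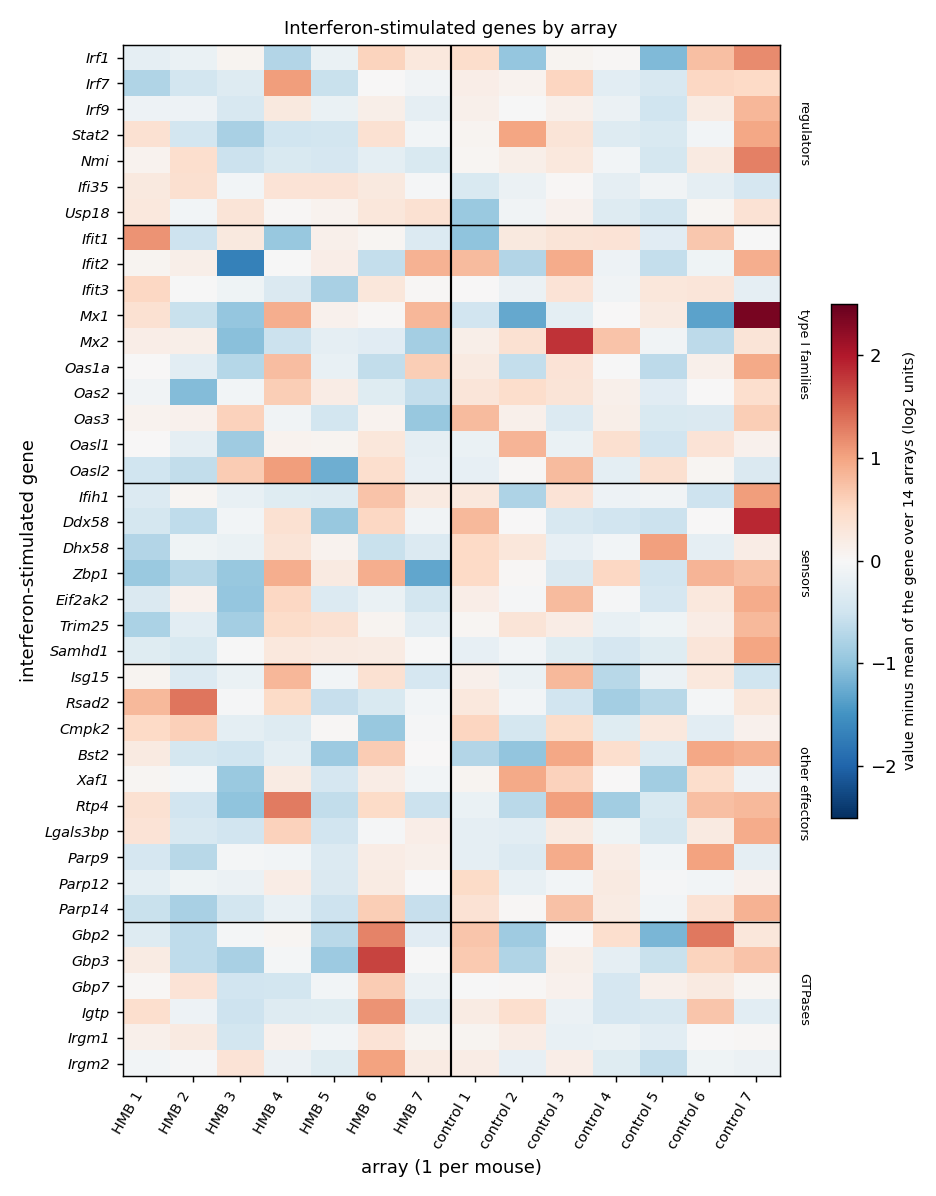
Deviation of each of 40 genes (rows, grouped by role) on each of 14 arrays (columns, HMB left of control) from the gene's mean over all arrays, in log2 units by colour. Control 7 is the highest array for 12 genes, HMB 3 the lowest for 13, and HMB 6 stands out in the GTPases.

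Of the other effectors 8 of 10 had lower means in HMB (all genes 48.3%), with a median difference of -0.14 (-0.11 without control 7). Parp14, an ADP-ribosyltransferase, had 7.47, 7.78 and 8.90 (lowest, median, highest) in HMB and 8.23, 8.65 and 9.17 in control. Of the HMB arrays 6 lay under every control array, and HMB 6 lay among the highest controls. The means were 7.93 ± 0.46 in HMB and 8.65 ± 0.35 in control, a difference of -0.72 (SE 0.21), with an unadjusted p of 0.00431 and an adjusted p of 0.990 in limma. Without control 7 the difference was -0.63, and without HMB 6 it was -0.88 with limma's adjusted p at 0.553. Parp9, of the same family, had 6.51, 7.13 and 7.39 in HMB and 6.87, 7.13 and 8.20 in control. Controls 3 and 6 were well above the rest and the medians were alike, for a difference of -0.36 (SE 0.23). Rsad2, or viperin, which makes a chain-terminating nucleotide, had 5.28, 5.82 and 7.19 in HMB and 5.01, 5.79 and 6.13 in control. Its medians too were close, 3 HMB arrays lay above every control, and the difference was 0.45 (SE 0.29). Both Rsad2 means lay under the lowest intron median.

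Isg15, the ubiquitin-like modifier, averaged 3.02 ± 0.44 in HMB and 2.94 ± 0.50 in control, under the intron median in both. Cmpk2, a mitochondrial nucleotide kinase, averaged 7.56 ± 0.52 in HMB and 7.67 ± 0.39 in control. Bst2, or tetherin, which holds budding virus at the membrane, averaged 9.26 ± 0.51 in HMB and 9.61 ± 0.84 in control. None of these differences exceeded its within-group SD. The differences of the rest were -0.30 for Xaf1, a promoter of apoptosis, -0.14 for Rtp4, a receptor chaperone, -0.088 for Lgals3bp, a secreted glycoprotein, and -0.13 for Parp12. Without control 7 Lgals3bp was at 0.059 and Rtp4 at -0.017. Parp12 had the narrowest spread of these genes, 9.94 ± 0.21 in HMB and 10.07 ± 0.22 in control.

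**Figure D3:**
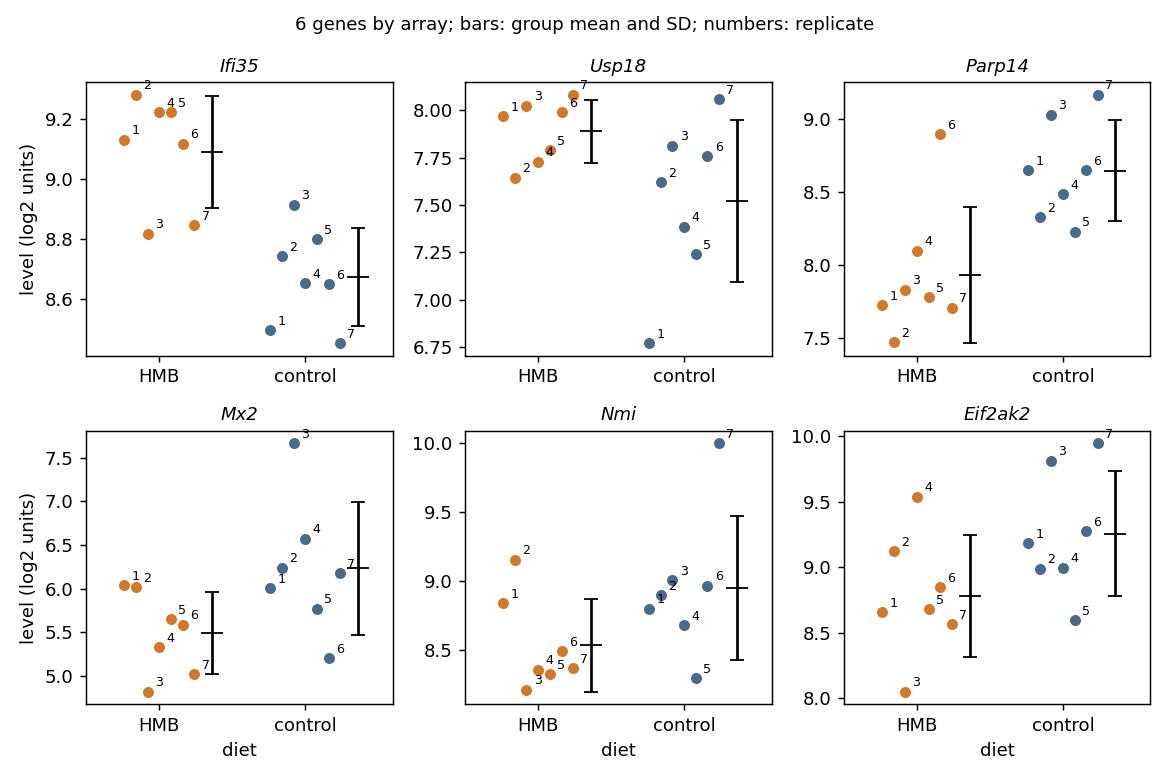
Log2 values (y axis) of Ifi35, Usp18, Parp14, Mx2, Nmi and Eif2ak2 on each array (numbered points), with HMB left of control and bars for the group mean and SD. Ifi35 has 5 HMB arrays above all controls, Parp14 has 6 HMB arrays under all controls, and control 7 is the highest control for Usp18, Parp14, Nmi and Eif2ak2.

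The interferon-gamma GTPases were the group most often above background, 4 of 6 on at least 1 array (all genes 5590 of 19505). Their median difference was -0.030, with 4 of 6 lower by mean in HMB (all genes 48.3%), and its sign turned positive in several settings. Gbp7, a guanylate-binding protein, had 10.92, 11.35 and 12.05 (lowest, median, highest) in HMB and 10.99, 11.46 and 11.62 in control. Gbp2, of the same family, had 9.15, 9.54 and 11.07 in HMB and 8.68, 10.10 and 11.13 in control. In both genes HMB 6 was the highest HMB array, and the groups overlapped almost fully (differences -0.037, SE 0.18, and -0.19, SE 0.37). The sign of the Gbp7 difference turned with each array centred on its median, to 0.034. Irgm1, a regulator of the immunity-related GTPases, had 10.30, 10.88 and 11.10 in HMB and 10.50, 10.77 and 10.94 in control. Irgm2, its relative, had 10.16, 10.45 and 11.47 in HMB and 9.88, 10.33 and 10.67 in control. These 2 had higher means in HMB, by 0.097 (SE 0.13) and 0.28 (SE 0.19), within the range the arrays of a group spanned. Gbp3 averaged 8.85 ± 0.89 in HMB and 8.999 ± 0.60 in control, and Igtp 8.78 ± 0.58 in HMB and 8.80 ± 0.44 in control.

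One HMB mouse set much of the spread in the GTPases. HMB 6 was the highest of 14 arrays for 5 of the 6 (all genes 4.74%), control 6 being highest for Gbp2. It gave 11.07 for Gbp2, 10.62 for Gbp3, 12.05 for Gbp7, 9.91 for Igtp, 11.10 for Irgm1 and 11.47 for Irgm2. The same array was highest for 0 of 10 type I genes, a count near the share of 4.74% over all genes. The T cell list mean of 5.50 and the NK cell list mean of 4.25 on HMB 6 were the highest of the HMB arrays. Its B cell list mean of 3.53 lay inside their range. Of the 11 T cell genes 7 lay above background on no array and 4 only on control 7, and the 8 NK cell genes on none. These list means on HMB 6 are therefore at background. The part of lymphocytes in this array's values was not tested.

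The families were set side by side by a score, the mean over a family's genes of the deviation from each gene's mean over all arrays. The type I score averaged -0.10 ± 0.22 in HMB and 0.10 ± 0.26 in control (SD, n = 7 each), a difference of -0.21. The GTPase score averaged -0.0016 ± 0.47 in HMB and 0.0016 ± 0.32 in control, a difference of -0.0031. Both differences were smaller than the within-group SD, and no test was made over chosen genes. The type I score less the GTPase score differed by -0.21 between HMB and control, and without HMB 6 by -0.045. The GTPase difference alone was -0.17 without HMB 6, whose score was 1.005, the other HMB arrays lying between -0.39 and 0.070. The gap between the families shrank most without HMB 6, and with 1 array left out it ran from -0.31 to -0.045. The group medians of the type I score less the GTPase score were 0.0023 in HMB and 0.29 in control. Without control 7 the type I difference was -0.14.

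**Figure D4:**
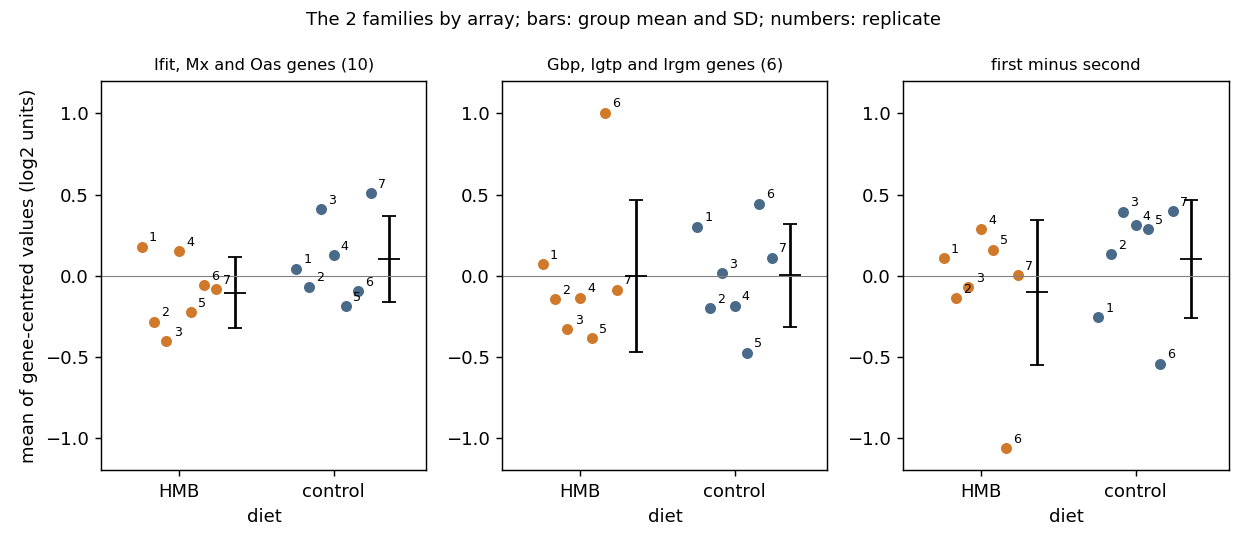
Score of the type I families and of the interferon-gamma GTPases on each array (points), in log2 units from the mean of all arrays, with HMB left of control, bars for the group mean and SD, and the first score less the second in the right panel. HMB 6 has a GTPase score of 1.005, above all other arrays, and a type I score of -0.060.

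The GTPases also varied together among mice. After removal of group means, the median Pearson r over 14 arrays was 0.56 for 15 pairs of GTPases (Spearman 0.40), with 15 of 15 above 0. It was 0.0017 for 45 type I pairs (Spearman -0.0066), with 23 of 45 above 0, and 0.089 for the 60 pairs between families. Without HMB 6 the GTPase median was 0.32 (Spearman 0.28), with 12 of 15 above 0. Over all 780 pairs of interferon-stimulated genes the median was 0.21. These correlations are over genes read on the same arrays and carry no test, and no type I gene was above background on any array. The highest single pair was Eif2ak2 with Irf9 (Pearson 0.83, Spearman 0.89).

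Genes upstream in the pathway were looked at in the same fit. Of 18 ligand genes measured, 17 had both means under the lowest intron median (all genes 9186 of 19505). None was above background on any array, as was so for 13915 of all 19505 genes. Among the ligands 1 of 18 passed an unadjusted p under 0.05 (all genes 4.54%). This was Ifnb1, the type I interferon beta, with an unadjusted p of 0.0423 and an adjusted p of 0.990 in limma. Ifnb1 averaged 3.20 ± 0.46 in HMB and 2.73 ± 0.34 in control, at background in both, and did not pass without control 7 (difference 0.43). Ifne, a type I interferon of epithelia, averaged 2.68 ± 0.19 in HMB and 2.97 ± 0.26 in control, and passed the unadjusted threshold once control 7 was left out (difference -0.32). Of 18 receptor and signalling genes 0 passed (all genes 4.54%), and 5 lay above background on all arrays (all genes 3643 of 19505). Among these, Ifngr1 averaged 12.07 ± 0.41 in HMB and 12.08 ± 0.58 in control, and Ifngr2, the other chain of the interferon-gamma receptor, 13.00 ± 0.34 in HMB and 12.95 ± 0.20 in control. The kinases Jak1 and Jak2, which relay the signal, differed by -0.0094 and 0.061, and Irf2, which competes with Irf1, by -0.24 (SE 0.14). The type I receptor chain Ifnar2 was above background on 11 arrays and Ifnar1 on none. Ptpn6, a phosphatase of blood cells that damps Jak signalling, averaged 5.21 ± 1.35 in HMB and 6.73 ± 3.04 in control, with control 7 at 12.71.

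Of 13 genes of nucleic acid sensing 0 passed an unadjusted p under 0.05 (all genes 4.54%). Adar, the RNA-editing enzyme, had the smallest p among them with a difference of -0.67 (-0.39 without control 7), followed by the adaptor Myd88 with -0.33. Of 41 other interferon-induced genes 4 passed (all genes 4.54%), all with lower means in HMB (all genes 2.19%) and none after adjustment in limma. Over the 41 genes 30 had lower means (all genes 48.3%), with a median difference of -0.18. Without control 7, 21 had lower and 20 higher means, near the share over all genes (50.2% lower), and the median was -0.018. In that fit 3 of 41 passed (all genes 4.37%). They were Slfn1 and Cxcl10 with lower means (all genes 2.44%) and Oas1b with a higher mean (0.56). Slfn1, a schlafen protein of T cells, averaged 4.27 ± 0.61 in HMB and 5.21 ± 0.87 in control (difference -0.94, without control 7 -0.63). Both Slfn1 means lay under the lowest intron median. Cxcl10, the interferon-induced chemokine that draws T cells, averaged 4.53 ± 1.17 in HMB and 5.72 ± 0.91 in control, and its difference of -1.19 was -1.245 without control 7, with both group means under the lowest intron median. The others were Herc6 (-0.57, without control 7 -0.42) and Ms4a4c (-1.65, without control 7 -0.92, that array being at 12.53), and neither passed without control 7. Of 5 other GTPases 0 passed (all genes 4.54%), with Gbp9 at -0.32 and Gbp4 at 0.31.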

How the data were processed

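Total RNA of gastrocnemius was hybridised to Clariom S mouse arrays, and the values were read as deposited. The deposited values were read as log2 intensities made by the authors. That scale was inferred from their range, and the summarisation and normalisation are not given in the sources used here, so only differences in log2 units are given, without folds. Of 22206 gene probesets, the 19572 with exactly 1 symbol were averaged per gene to 19505 genes, with no filter on dim genes. Replicates are arrays of separate mice, whose number bounds the precision. The HMB and control arrays were compared by limma 3.58.1 under R 4.3.3 (lmFit and eBayes, two-sided, Benjamini-Hochberg over all genes, threshold 0.05), which was tested on simulated data. The members, lists and tests were chosen with earlier results of these data known. All members are named. The lowest, median and highest value are given for members above background on at least 7 arrays and for the 3 of smallest p in each role, and pathway lists are named by their 2 smallest p values, with receptor genes detected on all arrays added. Ifnar1, Ifnar2, Herc6, Ms4a4c and Oas1b were chosen after their values were seen. Alternatives were other scalings, filters, variance settings, array weights, a replicate block, the methods' t-test and leaving out arrays. The fit without control 7 and HMB 4 together was chosen after seeing the data.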

Additional observations from a re-analysis of the deposited data

Results flagged for a closer look

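In groups of 7 arrays, 6 of 80 combinations of gene and group had 1 array far from the others, where chance gives about 1 in 20. Irf7 was 6.76 on HMB 4, with the next HMB array at 5.73. Nmi was 9.9996 and Mx1 7.64 on control 7, with the next controls at 9.01 and 5.49. Gbp2 was 11.07 and Gbp3 10.62 on HMB 6, with the next HMB arrays at 9.87 and 9.14. Gbp7 was 10.99 on control 4, the lowest control, with the next at 11.40. The GTPase score was 1.005 on HMB 6, with the next HMB array at 0.070, and the type I score less the GTPase score was -1.07 on HMB 6, with the next at -0.14.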

How the results depend on the processing

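No setting called any of the 40 genes after adjustment. The count at an unadjusted p under 0.05 was 3. It was 0 among the 6 genes left after a filter on the intron percentile (where no type I gene remained), 7 without control 7 and HMB 4 together (chosen after seeing the data), and 2 to 6 with 1 array left out. It was 5 without HMB 2, 6 without HMB 4, 5 without control 5 and 5 without control 6. Over all 19505 genes, 427 passed with lower and 458 with higher means in the main fit. These 2 counts were 419 and 408 without HMB 2, and 520 and 530 without HMB 4. They were 463 and 485 without control 5, and 434 and 417 without control 6. Without control 7 and HMB 4 together they were 576 and 465, and among the 5590 genes of the intron filter 70 and 121. The GTPase median of -0.030 was 0.041 with each array centred on its median, 0.030 with the intron filter, 0.036 with array weights, 0.013 without control 7 and HMB 4 together, and -0.18 to 0.051 with 1 array left out. Samhd1 was -0.012 under renewed quantile normalisation and -0.069 to 0.17 with 1 array left out. Gbp2 was -0.42 to 0.011 with 1 array left out, the positive value being without control 6. Gbp7 was 0.034 with median centring, 0.025 with array weights, 0.042 without control 7 and HMB 4 together, and -0.15 to 0.040 with 1 array left out. With 1 array left out the median of all 40 genes was -0.25 to -0.096, that of the type I families -0.27 to -0.11, and type I less GTPase -0.31 to -0.045. The cause of these shifts was not tested. Median centring moved the median of all genes to 0.080 and the share of lower means to 29 of 40 genes (all genes 35.8%), and array weights gave 27 of 40. Nothing in the labels says that replicate numbers pair the mice. Deviations of same-numbered arrays were little correlated (r -0.075 to 0.12), which cannot settle whether the numbers mark pairs. With the replicate block 0 genes were called, and Ifi35 and Parp14 (2 of 40) passed an unadjusted p under 0.05. Over all genes 505 passed with lower and 453 with higher means in that fit. Dim signal limits most of these genes.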
